A study of Mus musculus with 9 samples.

Results

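The 10 genes described here encode transcription factors that steer myeloid fate: Cebpa, Cebpb, Cebpd, Cebpe, Gfi1, Gfi1b, Irf8, Klf4, Runx1 and Id2. They were taken by gene symbol with all of their probes, which gave 20 of the 45281 probes on the array and 10 of its 19057 genes with a symbol. Of these probes, 15 were kept for testing, against 15870 in all, because their detection p-value was under 0.01 on at least 3 of the 9 arrays. Those 15 stand for 9 of the 10 genes, and Klf4 had none. The cells were bone marrow cells of C57/Bl6 mice, enriched for the stem cell factor receptor c-kit, transduced with a retrovirus and grown for 10 days in liquid RPMI medium with 10% fetal calf serum and the cytokines SCF (20 ng/µl), IL-3 and IL-6 (each given as 10 ng/µl). All 3 groups shared this background and culture and differed in the construct carried by the virus: MN1, MN1-TEL or MN1-TEL del DBD, with 3 replicates each. MN1 is a transcriptional coactivator, MN1-TEL fuses it to TEL, the ETS-family factor encoded by Etv6, and del DBD is read here as a deletion of the DNA-binding domain, with its extent not given in the sources used here. No group without a construct was analysed here, so each difference is between transduced cultures. The promoter of the vector, the age and sex of the mice and the number of animals pooled were not given in the sources used here.

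Myeloid fate is set by a small network of such factors. C/EBP proteins are leucine-zipper factors that drive granulocyte and macrophage genes: C/EBPα starts the granulocyte programme, C/EBPε completes it by turning on the secondary granule genes, and C/EBPβ and C/EBPδ act in differentiation and in responses to cytokines. GFI1 is a repressor that favours granulocytes, its close relative GFI1B serves erythroid cells and megakaryocytes, IRF8 and KLF4 favour monocytes, RUNX1 acts from the stem cell onward, and ID2 binds E proteins and keeps them off DNA.

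Values are log2 intensities after background correction and quantile normalization, and a difference of 1 is a doubling. A probe's value cannot be set against another probe's, so levels are compared across groups only. The lowest value of a detected probe was 5.94 to 6.26, depending on the array. Within a group the arrays correlated at 0.992 to 0.993 for MN1, 0.990 to 0.993 for del DBD and 0.962 to 0.989 for MN1-TEL, where replicate 2 stood apart. Raw intensity averaged 667 ± 30.8 (SD, n = 3) for the MN1 arrays, 943 ± 26.5 for MN1-TEL and 875 ± 20.8 for del DBD before quantile normalization, which gives all arrays the same distribution. Precision is limited by the small number of arrays. No label says that replicates were separate cultures, so a p-value here reflects a spread that may be technical. In bulk RNA a lower value may mean fewer cells of a type or less RNA per cell, and these cannot be told apart. As a check of the constructs, the Mn1 probe was detected on 0 of the 9 arrays, while Etv6 read 8.61 ± 0.03, 8.77 ± 0.14 and 8.69 ± 0.20 in MN1, MN1-TEL and del DBD with no called difference. Whether these probes lie in sequence that the constructs carry was not tested. Of 6 markers of c-kit progenitors, 5 were detected on each MN1 and del DBD array and 4 to 5 on each MN1-TEL array. Kit was detected on all 9 arrays, and Flt3 was the only marker never detected.

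Against MN1, both fusion groups carried far more Cebpe and more Runx1, a little more Cebpb and less Gfi1b. Cebpd was lower in MN1-TEL than in the other groups, Gfi1 and Irf8 were higher in del DBD than in the other groups, and Id2 was lower in del DBD. A gene is given by its leading probe, the kept one of highest mean, and a call is a limma adjusted p under 0.05. In MN1-TEL against MN1, 5 of the 9 genes were called, 3 up (24.2% of all genes were) and 2 down (28.0% were), beside 52.2% of all 9136 genes in either direction. In del DBD against MN1, 7 of 9 were called, 5 up (background 16.7%) and 2 down (17.2%), beside 34.0% of all genes. In del DBD against MN1-TEL, 4 of 9 were called, 3 up (background 13.2%) and 1 down (12.9%), beside 26.0%. Cebpa passed the filter mainly through del DBD, where it was detected on all 3 arrays, and the count is over the genes that passed. The first comparison's count was close to its background and the last not far above it, so neither count is a result about these genes. The second count lay above its background but is a description, since the members were chosen with earlier results of these data known. It includes Cebpb and Id2, whose calls there were lost under some of the alternatives given below. Over all 15 kept probes, 11, 11 and 6 were called in these comparisons, beside 48.8%, 31.4% and 23.4% of all kept probes, and 9 of the 15 belong to Cebpe, Gfi1b and Id2. The leading probe's groups did not overlap for 5, 8 and 6 of the 9 genes, beside 60.8%, 58.6% and 41.9% of all genes. Without MN1-TEL replicate 2, the first comparison had 6 calls and the others kept 7 and 4. The first pair of comparisons shares the MN1 arrays, and the third shares a group with each, so a gene's differences are not independent of one another.

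**Figure D1:**
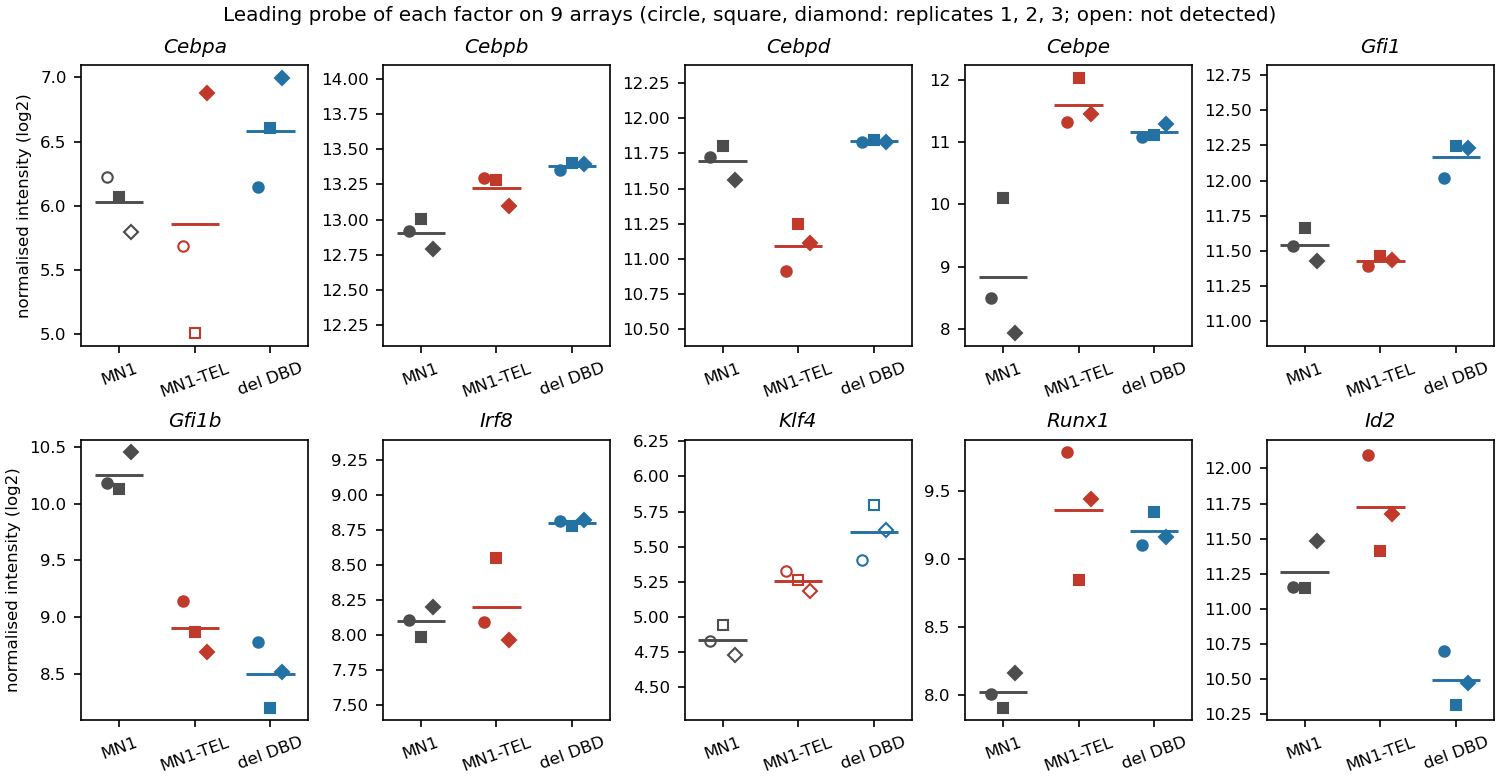
Log2 intensity of the leading probe of each gene (y axis) on the 9 arrays, by construct group (x axis), with each array as a point and the group mean as a line. Cebpe in MN1 lay between 7.94 and 10.10 and in both fusion groups between 11.07 and 12.02. Klf4 is drawn although none of its probes was detected.

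Cebpe, the factor of late granulocyte maturation, changed most. On its leading probe, ILMN_1220301, the MN1 arrays read 8.50, 10.10 and 7.94, the MN1-TEL arrays 11.32, 12.02 and 11.45, and the del DBD arrays 11.07, 11.11 and 11.29. Every fusion array lay above every MN1 array, and the MN1-TEL arrays lay just above those of del DBD. The MN1 arrays were spread widely, with replicate 2 well above the other two. The group means were 8.85 ± 1.12, 11.60 ± 0.37 and 11.16 ± 0.11 (SD, n = 3). Cebpe was higher by 2.75 (SE 0.47; limma adjusted p = 0.00119) in MN1-TEL than in MN1 and by 2.31 (SE 0.47; adjusted p = 0.00553) in del DBD than in MN1. Del DBD and MN1-TEL differed by -0.44 (SE 0.47; adjusted p = 0.552), with a 95% interval from -1.50 to 0.61 that leaves room for a difference in either direction.

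The other 3 Cebpe probes gave the same calls in both comparisons against MN1. ILMN_3029849 rose by 3.19 in MN1-TEL (adjusted p = 6.19e-04) and by 2.50 in del DBD (adjusted p = 0.00446). ILMN_3103062 was not detected on any MN1 array and was detected on every fusion array, so its difference is a bound of at least 3.47-fold in MN1-TEL (adjusted p = 0.00126) and at least 2.65-fold in del DBD (adjusted p = 0.00540). That bound sets the mean of the brighter group against, on each MN1 array, the higher of the probe's own value and the lowest detected one. The probes parted in MN1-TEL replicate 2. This array was the highest of its group on the leading probe, at 12.02 against 11.32 and 11.45, and the lowest on ILMN_2528453, at 7.04 against 9.04 and 9.45, and on ILMN_3103062, at 6.92 against 8.23 and 8.75. MN1 replicate 2 read 9.88 on ILMN_3029849, where the other MN1 arrays read 8.14 and 7.54, which repeats the pattern of the leading probe. Without MN1-TEL replicate 2, all 4 probes stayed called in both comparisons against MN1, and ILMN_2528453 was also called between the fusions, at -1.10 (adjusted p = 0.0315). ILMN_3029849 was called between the fusions without MN1 replicate 2, at -0.70 (adjusted p = 0.0293).

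Cebpb, which acts in cytokine-driven granulocyte production, rose slightly in both fusion groups. Its probe, ILMN_2756435, read 12.92, 13.002 and 12.79 in MN1, 13.30, 13.28 and 13.10 in MN1-TEL, and 13.35, 13.41 and 13.40 in del DBD. No fusion array fell to the level of an MN1 array, and del DBD lay above MN1-TEL without overlap. The rise was 0.32 (SE 0.11; limma adjusted p = 0.0307) in MN1-TEL and 0.48 (SE 0.11; adjusted p = 0.00821) in del DBD. The del DBD and MN1-TEL groups differed by 0.16 (SE 0.11; adjusted p = 0.323). Both rises depended on the scaling: with arrays set to the same median over the probes detected on all 9 arrays, they were 0.09 (adjusted p = 0.581) and 0.18 (adjusted p = 0.322). The rise in MN1-TEL was also lost without MN1 replicate 1 (adjusted p = 0.0736), without MN1 replicate 3 (0.109) or without MN1-TEL replicate 1 (0.0802).

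Cebpd, an early-response C/EBP, was lowest in MN1-TEL. Probe ILMN_2707363 read 11.73, 11.80 and 11.56 in MN1, 10.91, 11.25 and 11.12 in MN1-TEL, and 11.83, 11.84 and 11.83 in del DBD. The MN1-TEL arrays lay below all others, and the del DBD arrays lay above all MN1 arrays by a small margin. Cebpd fell by 0.61 (SE 0.12; limma adjusted p = 0.00256) in MN1-TEL against MN1 and was higher by 0.74 (SE 0.12; adjusted p = 0.00214) in del DBD than in MN1-TEL. Del DBD and MN1 differed by 0.14 (SE 0.12; adjusted p = 0.411), and with median scaling this sign turned to -0.04. When the median was taken over all probes, a scaling that moved the median of all genes from -0.06 to 0.40, the fall in MN1-TEL was -0.17 (adjusted p = 0.378). The second Cebpd probe, ILMN_2588570, was not detected on any array.

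Cebpa, which starts granulocyte commitment, stayed near background. Its probe, ILMN_1247147, read 6.22, 6.07 and 5.80 in MN1, 5.69, 5.01 and 6.88 in MN1-TEL, and 6.14, 6.60 and 6.99 in del DBD. It was detected on 1 MN1 array, 1 MN1-TEL array and all 3 del DBD arrays, and the groups overlapped in every comparison. No difference was called with all 9 arrays: -0.17 (SE 0.42; limma adjusted p = 0.756) for MN1-TEL against MN1, 0.55 (SE 0.42; adjusted p = 0.355) for del DBD against MN1 and 0.72 (SE 0.42; adjusted p = 0.252) for del DBD against MN1-TEL. The last interval ran from -0.22 to 1.66, so a doubling of Cebpa in del DBD was within what these arrays allow. MN1-TEL replicate 2 was the lowest of the 9 arrays, and without it the first difference turned to 0.25 and the last was 0.30 (adjusted p = 0.556). Without MN1-TEL replicate 3, the highest of that group, the last was called, at 1.23 (adjusted p = 0.0200).

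**Figure D2:**
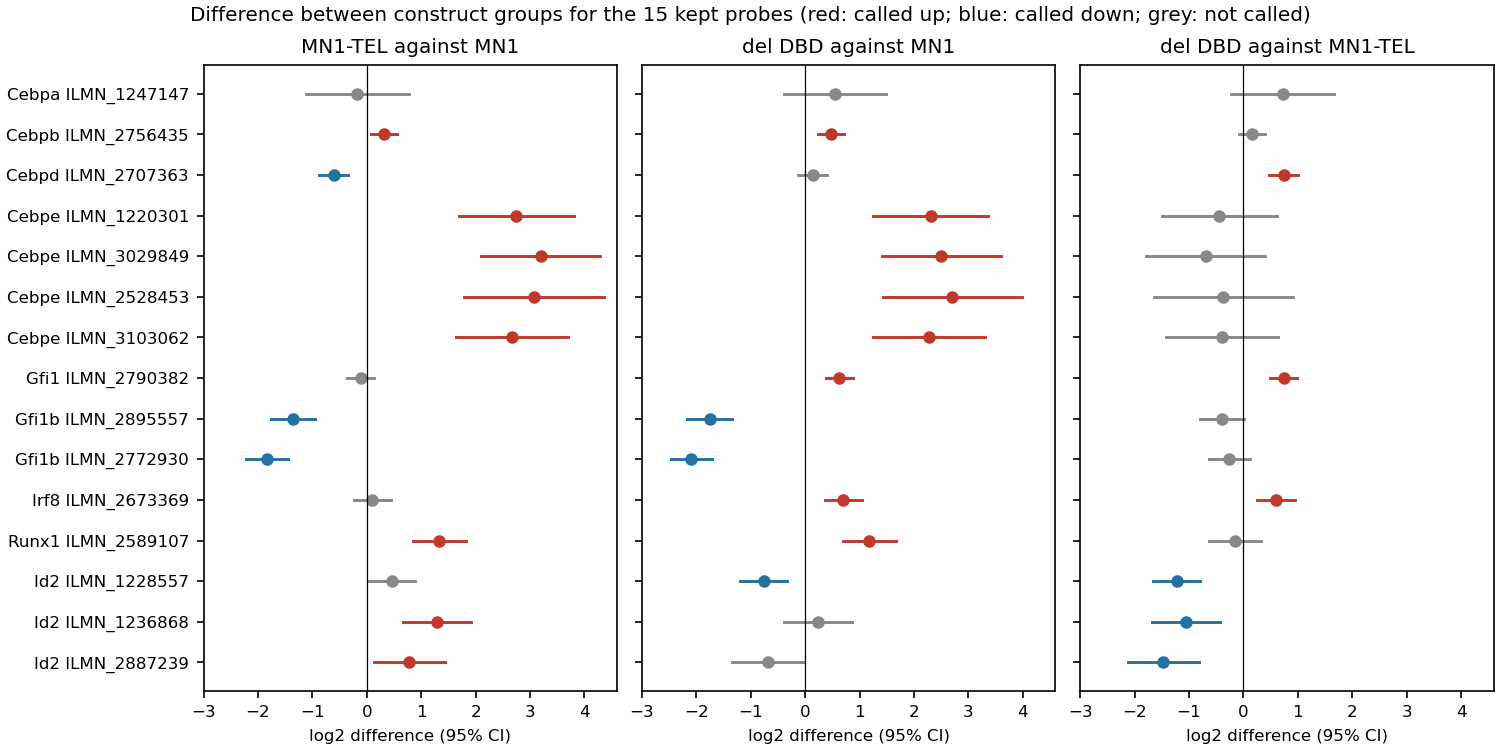
Log2 difference (x axis) with its 95% confidence interval for each of the 15 kept probes (y axis) in the 3 comparisons, coloured by call at an adjusted p under 0.05. All 4 Cebpe probes lay above 0 in both comparisons against MN1, and both Gfi1b probes lay below 0 in each comparison against MN1.

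Genes known to depend on C/EBP proteins were read beside these values. Of 6 measured secondary granule genes that C/EBPε drives, 6 rose in MN1-TEL against MN1 (background up 24.2%) and 4 rose in del DBD (16.7%), with list medians of 2.90 and 2.11 against -0.06 and -0.04 over all genes. Ltf, which encodes lactoferrin, was not detected on any MN1 array and was at least 415-fold higher in MN1-TEL (limma adjusted p = 2.31e-08) and at least 176-fold higher in del DBD (adjusted p = 1.07e-07). Camp, the cathelicidin gene, rose by 3.06 (adjusted p = 2.48e-04) and 2.28 (adjusted p = 0.00263). Ltf and Ngp were detected on no MN1 array and Mmp8 on the MN1-TEL arrays alone, so they passed the filter through the groups where they are high, and the counts and medians are a description that supports nothing. In del DBD against MN1-TEL, 5 of the 6 fell (background down 12.9%), Ltf by 1.24 (adjusted p = 0.00706). Of 9 measured markers of whole neutrophils, 8 rose in each fusion group (background up 24.2% and 16.7%). In del DBD against MN1-TEL, where the leading Cebpe probe was not called, 4 fell and 1 rose (background 12.9% down and 13.2% up). Ltf, Ngp, Mmp8, Retnlg and Cd177 were not detected on any MN1 array, so these counts are likewise a description. From 3 to 4 of the 9 were detected per MN1 array. Their summed linear intensity was 3408 to 3992 in MN1, 99349 to 106775 in MN1-TEL and 78938 to 82371 in del DBD. The part of neutrophil content in the Cebpe result was not tested, and 4 of those 9 markers are also among the secondary granule genes.

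Receptor and primary granule genes bound by C/EBPα went in both directions in MN1-TEL. Of 8 measured, 4 rose and 2 fell in MN1-TEL against MN1 (background 24.2% up and 28.0% down), 6 rose in del DBD against MN1 (16.7% up), and 3 were higher and 2 lower in del DBD than in MN1-TEL (13.2% and 12.9%). Under the median scaling over probes detected on all arrays, 5 rose and 2 fell in del DBD against MN1. Il6ra, counted as a rise in both comparisons against MN1, was detected on no MN1 array and on 1 del DBD array. It passed the filter through MN1-TEL, and its del DBD mean of 5.68 lay below the lowest detected value of any array. Csf3r, the receptor for G-CSF, rose by 1.39 (limma adjusted p = 2.80e-05) in MN1-TEL and 1.00 (adjusted p = 4.39e-04) in del DBD. Elane and Mpo, which encode the primary granule proteins neutrophil elastase and myeloperoxidase, parted between the fusions. Elane fell by 0.81 (adjusted p = 0.0155) in MN1-TEL but rose by 2.03 (adjusted p = 1.86e-04) in del DBD. Mpo fell by 3.02 (adjusted p = 2.58e-06) in MN1-TEL, while in del DBD its difference from MN1 was -0.32 (adjusted p = 0.227). Both were higher in del DBD than in MN1-TEL, by 2.84 (adjusted p = 6.28e-05) and 2.70 (adjusted p = 2.72e-05).

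Of 6 other measured leucine-zipper relatives of the C/EBP proteins, 5 fell in MN1-TEL against MN1 (background down 28.0%), 1 fell in del DBD against MN1 (17.2%) and 3 were higher in del DBD than in MN1-TEL (background up 13.2%). Cebpg, which lacks an activation domain and pairs with other C/EBP proteins, fell by 0.65 (limma adjusted p = 0.00103) in MN1-TEL and was 0.48 higher (adjusted p = 0.0115) in del DBD than in MN1-TEL. Ddit3, a stress-induced partner of C/EBP proteins, fell by 1.30 (adjusted p = 0.00108) and was 1.32 higher (adjusted p = 0.00264) in the same comparisons. Batf, the other of the 6, differed by 0.51 (adjusted p = 0.302) in MN1-TEL. With the median scaling over all probes, 2 of the 6 fell in MN1-TEL. Trib2, which encodes a Tribbles protein that promotes breakdown of C/EBPα, fell by 2.47 (adjusted p = 7.33e-06) in MN1-TEL and by 0.62 (adjusted p = 0.0302) in del DBD, and was 1.85 higher in del DBD than in MN1-TEL (adjusted p = 1.85e-04). Trib1 was not among the kept genes.

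Promoter windows are shown because several of these factors are known to bind one another's genes. They are the sequences RefSeq gives on GRCm38.p6, from 250 bases before a transcript start to 50 after it, and 8 of the 10 genes matched, with 11 windows. Those printed are each window of a called gene that holds a match to a motif searched, and that of Gfi1b, which fell and holds none. Capitals mark matches on either strand to CGGAAG for ETS factors, the family of TEL, to AATCAC for GFI1 and GFI1B, to TGTGGT for RUNX factors, or to TTGCNNAA for C/EBP proteins. Runx1 has an upstream window at chr16:92826025-92826324 and a downstream one at chr16:92697280-92697579, and Gfi1 likewise at chr5:107725756-107726055 and chr5:107724294-107724593, all on the minus strand. The Irf8 window lies at chr8:120736108-120736407 on the plus strand, that of Id2 at chr12:25096043-25096342 on the minus strand, and that of Gfi1b at chr2:28621933-28622232 on the minus strand. Each is written 5′ to 3′ on the gene's strand.
Runx1 upstream: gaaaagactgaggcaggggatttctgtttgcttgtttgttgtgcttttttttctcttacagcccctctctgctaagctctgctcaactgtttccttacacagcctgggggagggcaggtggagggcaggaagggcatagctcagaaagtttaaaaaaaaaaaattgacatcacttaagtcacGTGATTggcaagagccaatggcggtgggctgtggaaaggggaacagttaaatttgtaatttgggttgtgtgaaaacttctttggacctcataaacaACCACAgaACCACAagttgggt
Runx1 downstream: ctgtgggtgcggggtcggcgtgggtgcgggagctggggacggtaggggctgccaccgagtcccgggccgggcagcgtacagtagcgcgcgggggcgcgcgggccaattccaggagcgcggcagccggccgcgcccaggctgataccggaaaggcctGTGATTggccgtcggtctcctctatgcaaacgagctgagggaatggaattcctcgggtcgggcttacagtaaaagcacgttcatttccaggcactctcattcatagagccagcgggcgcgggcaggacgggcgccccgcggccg
Gfi1 upstream: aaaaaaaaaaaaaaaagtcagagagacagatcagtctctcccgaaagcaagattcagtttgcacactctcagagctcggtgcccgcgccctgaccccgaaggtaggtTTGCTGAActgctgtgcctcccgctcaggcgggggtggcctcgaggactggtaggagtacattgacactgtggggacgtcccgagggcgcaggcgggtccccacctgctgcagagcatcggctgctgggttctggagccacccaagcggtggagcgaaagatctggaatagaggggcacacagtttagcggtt
Gfi1 downstream: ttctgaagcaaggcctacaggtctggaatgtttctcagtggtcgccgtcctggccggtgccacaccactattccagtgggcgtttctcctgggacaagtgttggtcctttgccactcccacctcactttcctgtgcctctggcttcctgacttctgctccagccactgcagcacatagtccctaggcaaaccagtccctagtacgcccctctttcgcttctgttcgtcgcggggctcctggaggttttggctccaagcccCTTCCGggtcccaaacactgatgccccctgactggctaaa
Irf8: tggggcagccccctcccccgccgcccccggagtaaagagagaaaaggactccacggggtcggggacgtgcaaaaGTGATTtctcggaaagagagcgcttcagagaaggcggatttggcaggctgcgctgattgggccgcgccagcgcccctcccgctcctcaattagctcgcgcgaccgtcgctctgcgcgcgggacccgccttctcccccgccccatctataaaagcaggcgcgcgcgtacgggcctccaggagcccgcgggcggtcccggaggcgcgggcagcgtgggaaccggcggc
Id2: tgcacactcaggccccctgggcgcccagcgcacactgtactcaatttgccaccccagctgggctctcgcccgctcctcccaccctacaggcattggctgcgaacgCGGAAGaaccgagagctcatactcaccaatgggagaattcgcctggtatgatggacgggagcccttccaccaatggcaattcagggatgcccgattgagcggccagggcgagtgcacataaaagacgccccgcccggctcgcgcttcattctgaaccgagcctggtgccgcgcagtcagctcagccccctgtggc
Gfi1b: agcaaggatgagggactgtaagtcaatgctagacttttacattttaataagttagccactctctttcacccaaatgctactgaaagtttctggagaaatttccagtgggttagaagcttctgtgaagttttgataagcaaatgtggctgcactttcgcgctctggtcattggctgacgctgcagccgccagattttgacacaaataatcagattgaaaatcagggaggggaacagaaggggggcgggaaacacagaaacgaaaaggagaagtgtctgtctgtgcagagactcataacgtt

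The upstream Runx1 window holds the RUNX letters at 29 and 37 bases after the start and the GFI1 letters 68 bases before it, and the downstream one holds the GFI1 letters 94 bases before its start. The Irf8 window holds the GFI1 letters 176 bases before the start. In Gfi1, the C/EBP letters begin 143 bases before the upstream start and the ETS letters 11 bases after the downstream one. The ETS letters also stand 145 bases before the Id2 start. Over all 32851 windows, 16.9% hold the ETS letters, 16.8% the RUNX letters, 10.4% the GFI1 letters and 10.8% the C/EBP letters, against 2, 1, 3 and 1 of the 11 windows of these genes. The IRF letters, GAAA followed by any 2 bases and GAAA again, stand in 3.44% of all windows and in 0 of the 11. No matches overlapped. A match describes letters in the window and not a bound site.

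GFI1 and GFI1B share a DNA motif and a repressor domain, and their genes had different patterns. The Gfi1 probe, ILMN_2790382, read 11.54, 11.66 and 11.43 in MN1, 11.39, 11.46 and 11.44 in MN1-TEL, and 12.02, 12.25 and 12.23 in del DBD. All del DBD arrays lay above all others, and MN1 and MN1-TEL overlapped. Gfi1 was higher in del DBD than in MN1 by 0.62 (SE 0.11; limma adjusted p = 0.00277) and than in MN1-TEL by 0.74 (SE 0.11; adjusted p = 0.00160). The MN1-TEL and MN1 groups differed by -0.11 (SE 0.11; adjusted p = 0.432), a difference that turned to 0.32 under the all-probe median scaling.

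Gfi1b was highest in MN1. On its leading probe, ILMN_2895557, the arrays read 10.18, 10.13 and 10.46 in MN1, 9.14, 8.87 and 8.69 in MN1-TEL, and 8.78, 8.20 and 8.51 in del DBD. Every MN1 array lay above every fusion array, and the fusion groups overlapped. Gfi1b fell by 1.36 (SE 0.18; limma adjusted p = 2.74e-04) in MN1-TEL and by 1.76 (SE 0.18; adjusted p = 1.05e-04) in del DBD. The second probe, ILMN_2772930, fell by 1.83 (adjusted p = 2.96e-05) and 2.09 (adjusted p = 2.54e-05). Del DBD and MN1-TEL differed by -0.40 (SE 0.18; adjusted p = 0.140) on the leading probe. Both falls were called under every alternative run. Of 6 measured markers of megakaryocytes and platelets, 4 fell in MN1-TEL (background down 28.0%) and 3 fell in del DBD (17.2%), while Vwf, the von Willebrand factor gene, rose by 3.05 (adjusted p = 3.24e-06) and 1.14 (adjusted p = 0.00242). These markers had a summed intensity of 7653 to 10979 in MN1, 3377 to 5874 in MN1-TEL and 3963 to 4930 in del DBD over 8 genes, of which Gp6 was never detected. Of 6 erythroid markers, 3 fell in each fusion group (background down 28.0% and 17.2%), yet 2 beta globin genes rose in del DBD, Hbb-bt by 3.03 (adjusted p = 7.01e-04). The summed erythroid intensity was 12092 to 14405 in MN1, 11335 to 20275 in MN1-TEL and 36740 to 40673 in del DBD. Alas2 was detected on the MN1 arrays alone, and Ppbp on no MN1-TEL array and 1 del DBD array. Alas2 passed the filter through MN1 alone and Ppbp mainly so. The megakaryocyte and erythroid counts are thus a description that supports nothing. Epor and Klf1 averaged 5.86 and 6.06 in MN1-TEL and 6.10 and 6.04 in del DBD, near the lowest detected values. The part of these cells in the Gfi1b result was not tested.

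The cofactors and targets of GFI1 and GFI1B were mixed. Of 7 measured cofactors, 5 fell and 1 rose in MN1-TEL against MN1 (background 28.0% down and 24.2% up), 2 fell and 1 rose in del DBD against MN1 (17.2% and 16.7%), and 2 were higher in del DBD than in MN1-TEL (13.2%). Under the all-probe median scaling 2 fell and 1 rose in MN1-TEL. Kdm1a, the histone demethylase that the SNAG repressor domain recruits, fell by 0.87 (limma adjusted p = 1.07e-04) in MN1-TEL and 0.41 (adjusted p = 0.0130) in del DBD, and was 0.46 higher in del DBD than in MN1-TEL (adjusted p = 0.00941). Rcor1, the CoREST scaffold, rose by 0.37 (adjusted p = 0.0180) and 0.55 (adjusted p = 0.00441), and neither rise was called under the median scaling over probes detected on all arrays, where 6 and 4 cofactors fell and none rose. Among 8 targets reported to be repressed by GFI1, 2 rose and 2 fell in MN1-TEL (background 24.2% and 28.0%) and 3 rose and 2 fell in del DBD (16.7% and 17.2%). In del DBD against MN1-TEL, 1 was higher and 3 lower, where the background is 13.2% up and 12.9% down. The all-probe median scaling gave 4 up and 1 down in MN1-TEL. The cofactor gene Rcor2 and the target Hoxa9 were detected on no MN1-TEL array, so they passed the filter through MN1 and del DBD. Both count as falls in MN1-TEL and as higher in del DBD than in MN1-TEL. The counts of these comparisons are therefore a description that supports nothing. Egr2, a macrophage fate factor, rose by 4.56 (adjusted p = 5.93e-07) in MN1-TEL and 2.08 (adjusted p = 1.26e-04) in del DBD and fell by 2.48 (adjusted p = 9.86e-05) in del DBD against MN1-TEL. Egr1 fell by 0.54 (adjusted p = 0.0180) in that last comparison.

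Irf8, the interferon regulatory factor of monocytes and dendritic cells, was highest in del DBD. Probe ILMN_2673369 read 8.11, 7.99 and 8.20 in MN1, 8.09, 8.55 and 7.97 in MN1-TEL, and 8.81, 8.77 and 8.82 in del DBD. The del DBD arrays lay close together above all others, and MN1 and MN1-TEL overlapped, with MN1-TEL replicate 2 the highest of those. Irf8 was higher in del DBD than in MN1 by 0.70 (SE 0.15; limma adjusted p = 0.00780) and than in MN1-TEL by 0.60 (SE 0.15; adjusted p = 0.0205). MN1-TEL and MN1 differed by 0.10 (SE 0.15; adjusted p = 0.600). Without MN1-TEL replicate 2 the difference of del DBD from MN1-TEL was 0.77 (adjusted p = 0.00104) and that of MN1-TEL from MN1 turned to -0.07. Under the all-probe median scaling MN1-TEL was called above MN1, by 0.70 (adjusted p = 0.00139). The call of del DBD against MN1-TEL was lost when MN1-TEL replicate 1 or 3 or any del DBD replicate was left out, with adjusted p from 0.0562 to 0.0664.

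Most other IRF genes and IRF8 targets that were measured rose in both fusion groups. Of 7 other IRF genes, 4 rose in MN1-TEL and 5 in del DBD against MN1 (background up 24.2% and 16.7%), and none was called by limma between the fusions, where the unadjusted p was under 0.05 for 1 of 7. Irf4, a relative that acts in dendritic and lymphoid cells, was not detected on any MN1 array and was at least 2.52-fold higher in MN1-TEL (adjusted p = 1.72e-06) and at least 2.33-fold higher in del DBD (adjusted p = 4.01e-06). Of 6 IRF8 target and monocyte genes, 5 rose in each fusion group (background up 24.2% and 16.7%). In del DBD against MN1-TEL, 2 fell (background down 12.9%). Irf4, Irf7, Ctss, Fcgr1 and Bcl2l1 were not detected on any MN1 array, so they passed the filter through the fusion groups. The counts of both lists are a description that supports nothing. Csf1r, the M-CSF receptor, rose by 3.57 (adjusted p = 6.02e-07) and 2.45 (adjusted p = 1.04e-05) and was detected on 1 of 3 MN1 arrays. Among 8 measured monocyte and macrophage markers, 6 rose and 2 fell in each fusion group. The background was 24.2% up and 28.0% down for MN1-TEL and 16.7% and 17.2% for del DBD. The 2 that fell were Ccr2 and F13a1, which were detected on no MN1-TEL array, while Fcgr1 was detected on no MN1 array. Such genes passed the filter through the groups where they are high, so these counts are likewise a description. The summed intensity over all 10 was 4617 to 5807 in MN1, 41030 to 48035 in MN1-TEL and 20296 to 25481 in del DBD. Ly86 and Ms4a6c were never detected. The sums are of linear values, so the brightest markers weigh most. In both fusion groups that was Lyz2, which is also on the C/EBPα list above. Lyz2 averaged 7.77 on the MN1 arrays, 14.90 with MN1-TEL and 13.51 with del DBD. The rise of the sums is thus not a measure of monocyte number. The part of monocyte content in the Irf8 result was not tested.

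Klf4, a zinc finger factor of monocyte differentiation, was not detected by any of its 3 probes on any array. Its brightest probe, ILMN_2999439, read 4.83 ± 0.11 (SD, n = 3) in MN1, 5.26 ± 0.07 for MN1-TEL and 5.61 ± 0.20 for del DBD, all below the lowest detected values, and no fold or test is given. Of 8 other KLF genes measured, 2 rose and 2 fell in each comparison against MN1 (background 24.2% up and 28.0% down for MN1-TEL, 16.7% and 17.2% for del DBD), but 5 rose and 2 fell in MN1-TEL under the all-probe median scaling. Klf2 rose by 0.64 (limma adjusted p = 0.0190) in MN1-TEL, and Klf1, the erythroid KLF, fell by 1.19 (adjusted p = 0.00137) and 1.20 (adjusted p = 0.00239). Klf1 was detected on 2 MN1-TEL arrays and 1 del DBD array, and its means there lay near the lowest detected values.

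Runx1, the DNA-binding subunit of core binding factor, rose in both fusion groups. Probe ILMN_2589107 read 8.01, 7.91 and 8.16 in MN1, 9.79, 8.85 and 9.44 in MN1-TEL, and 9.10, 9.35 and 9.16 in del DBD. All fusion arrays lay above all MN1 arrays, and MN1-TEL was spread on both sides of del DBD with replicate 2 its lowest. The rise was 1.33 (SE 0.21; limma adjusted p = 8.68e-04) in MN1-TEL and 1.18 (SE 0.21; adjusted p = 0.00319) in del DBD, and both were called under every alternative run. The fusion groups differed by -0.15 (SE 0.21; adjusted p = 0.659), which turned to 0.06 without MN1-TEL replicate 1. The other Runx1 probe, ILMN_2619773, annotated to a different transcript record, was not detected on any array. Cbfb, the partner subunit, rose by 0.39 (adjusted p = 0.0149) in MN1-TEL and differed by 0.03 (adjusted p = 0.862) in del DBD, and the rise was not called under the median scaling over probes detected on all arrays. Of the 3 measured partner genes, 1 rose and 1 fell in MN1-TEL (background 24.2% up and 28.0% down). None was called by limma in del DBD against MN1, where the unadjusted p was under 0.05 for 1 of 3.

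Id2 differed most between the fusions among the 9 leading probes, being 2.35 times as high in MN1-TEL as in del DBD. That probe, ILMN_1228557, read 11.15, 11.15 and 11.48 in MN1, 12.09, 11.41 and 11.68 in MN1-TEL, and 10.70, 10.32 and 10.47 in del DBD. The del DBD arrays lay below all others, and MN1 and MN1-TEL overlapped. Id2 fell by 1.23 (SE 0.19; limma adjusted p = 0.00186) in del DBD against MN1-TEL and by 0.77 (SE 0.19; adjusted p = 0.0147) in del DBD against MN1. MN1-TEL and MN1 differed by 0.46 (SE 0.19; adjusted p = 0.0697), and without MN1-TEL replicate 2 the difference was 0.62 (adjusted p = 0.0160).

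With all 9 arrays the 3 Id2 probes were each called between the fusions, and they parted elsewhere. ILMN_1236868, annotated to another transcript record, read 8.79, 8.83 and 9.73 in MN1, 10.68, 9.92 and 10.63 in MN1-TEL, and 9.36, 9.33 and 9.35 in del DBD. On it the MN1-TEL arrays lay above all others, and del DBD fell within the MN1 range. It rose by 1.30 (SE 0.28; limma adjusted p = 0.00408) in MN1-TEL and differed by 0.23 (adjusted p = 0.563) in del DBD against MN1, the opposite sign from the leading probe. ILMN_2887239 rose by 0.78 (adjusted p = 0.0483) in MN1-TEL, a call lost with no filter on detection and without any MN1 replicate, MN1-TEL replicate 1 or 2 or del DBD replicate 3 (adjusted p from 0.0680 to 0.147), and differed by -0.69 (adjusted p = 0.0987) in del DBD against MN1. Against MN1-TEL, del DBD was lower on all 3, with -1.06 (adjusted p = 0.0224) and -1.47 (adjusted p = 0.00617) on the latter 2. The call of ILMN_1236868 there was lost without MN1-TEL replicate 1 or 3 or any del DBD replicate, with adjusted p from 0.0591 to 0.0740. The fall of Id2 in del DBD against MN1 was lost without MN1 replicate 3 (adjusted p = 0.0555), without del DBD replicate 2 (0.0594), under the all-probe median scaling (0.0857) and when the probes of a gene were averaged (0.138).

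The genes of E proteins, which ID2 binds, and of its own relatives were read beside it. Among 5 measured, 2 fell in MN1-TEL (background down 28.0%), 1 fell in del DBD against MN1 (17.2%), and 1 was higher in del DBD than in MN1-TEL (background up 13.2%), while under the all-probe median scaling 2 rose and 1 fell in MN1-TEL. Without MN1-TEL replicate 2, 1 rose and 3 fell in MN1-TEL, 1 rose and 2 fell in del DBD against MN1, and 2 were higher and 1 lower in del DBD than in MN1-TEL. Tcf4, an E protein gene named after its values were seen, is among the calls of each comparison with all 9 arrays and fell by 1.81 (limma adjusted p = 5.17e-06) in MN1-TEL and by 0.93 (adjusted p = 6.38e-04) in del DBD, and was 0.88 higher in del DBD than in MN1-TEL (adjusted p = 0.00128). Between the fusions Tcf4 was thus higher where Id2 was lower, but in del DBD against MN1 both Tcf4 and the leading Id2 probe were lower. A relation between these genes was not tested. Id1 differed by -0.27 (adjusted p = 0.202) in MN1-TEL and by 0.21 (adjusted p = 0.361) in del DBD. Of 11 mast cell and basophil markers, 6 were lower and 2 higher in del DBD than in MN1-TEL (background 12.9% down and 13.2% up). Their summed intensity was 112240 to 123054 in MN1, 101222 to 138843 in MN1-TEL and 83536 to 99050 in del DBD, so MN1 and MN1-TEL overlapped. Kit, which mast cells and progenitors carry, was also lower in del DBD than in MN1-TEL, at -2.23 (adjusted p = 1.91e-04). The part of such cells in the Id2 result was not tested.

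**Figure D3:**
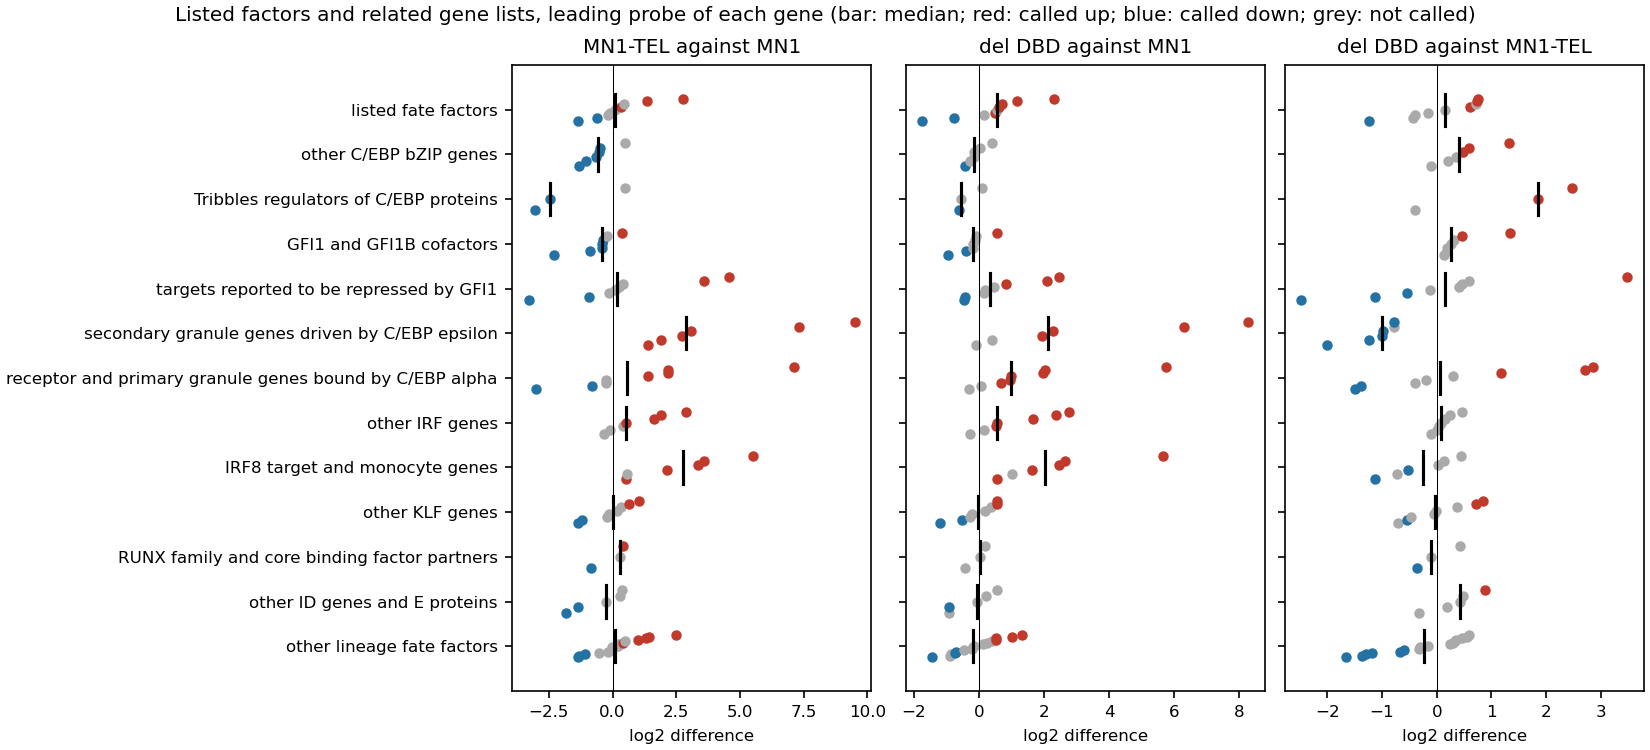
Log2 difference (x axis) of each measured gene, as a point, in the lists of fate factors, partners, cofactors and targets (y axis) in the 3 comparisons, with a bar at the list median and colour by call at an adjusted p under 0.05. The 6 measured secondary granule genes rose in MN1-TEL against MN1, and 5 of 6 fell in del DBD against MN1-TEL.

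Other lineage factors give the surroundings of these genes. Of 16 measured, 5 rose and 3 fell in MN1-TEL (background 24.2% up and 28.0% down). In del DBD against MN1, 4 rose and 3 fell (16.7% and 17.2%), and 6 were lower in del DBD than in MN1-TEL (background down 12.9%). The counts against MN1 were not far from their background, so they are not a result about these factors. Under the all-probe median scaling 8 rose and 2 fell in MN1-TEL. Spi1, which encodes the myeloid master factor PU.1, rose by 1.33 (limma adjusted p = 2.65e-04) and 1.01 (adjusted p = 0.00247). Gata1, the erythroid, megakaryocyte and mast cell factor, rose by 1.44 (adjusted p = 0.00127) in MN1-TEL, where Gfi1b fell, and differed by -0.22 (adjusted p = 0.548) in del DBD. Gata2, a factor of progenitors and mast cells, fell by 0.70 (adjusted p = 0.0127) in del DBD against MN1 and by 0.67 (adjusted p = 0.0197) against MN1-TEL. Myb, which keeps progenitors immature, fell by 1.30 (adjusted p = 3.66e-04) and 0.75 (adjusted p = 0.0126).

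**Figure D4:**
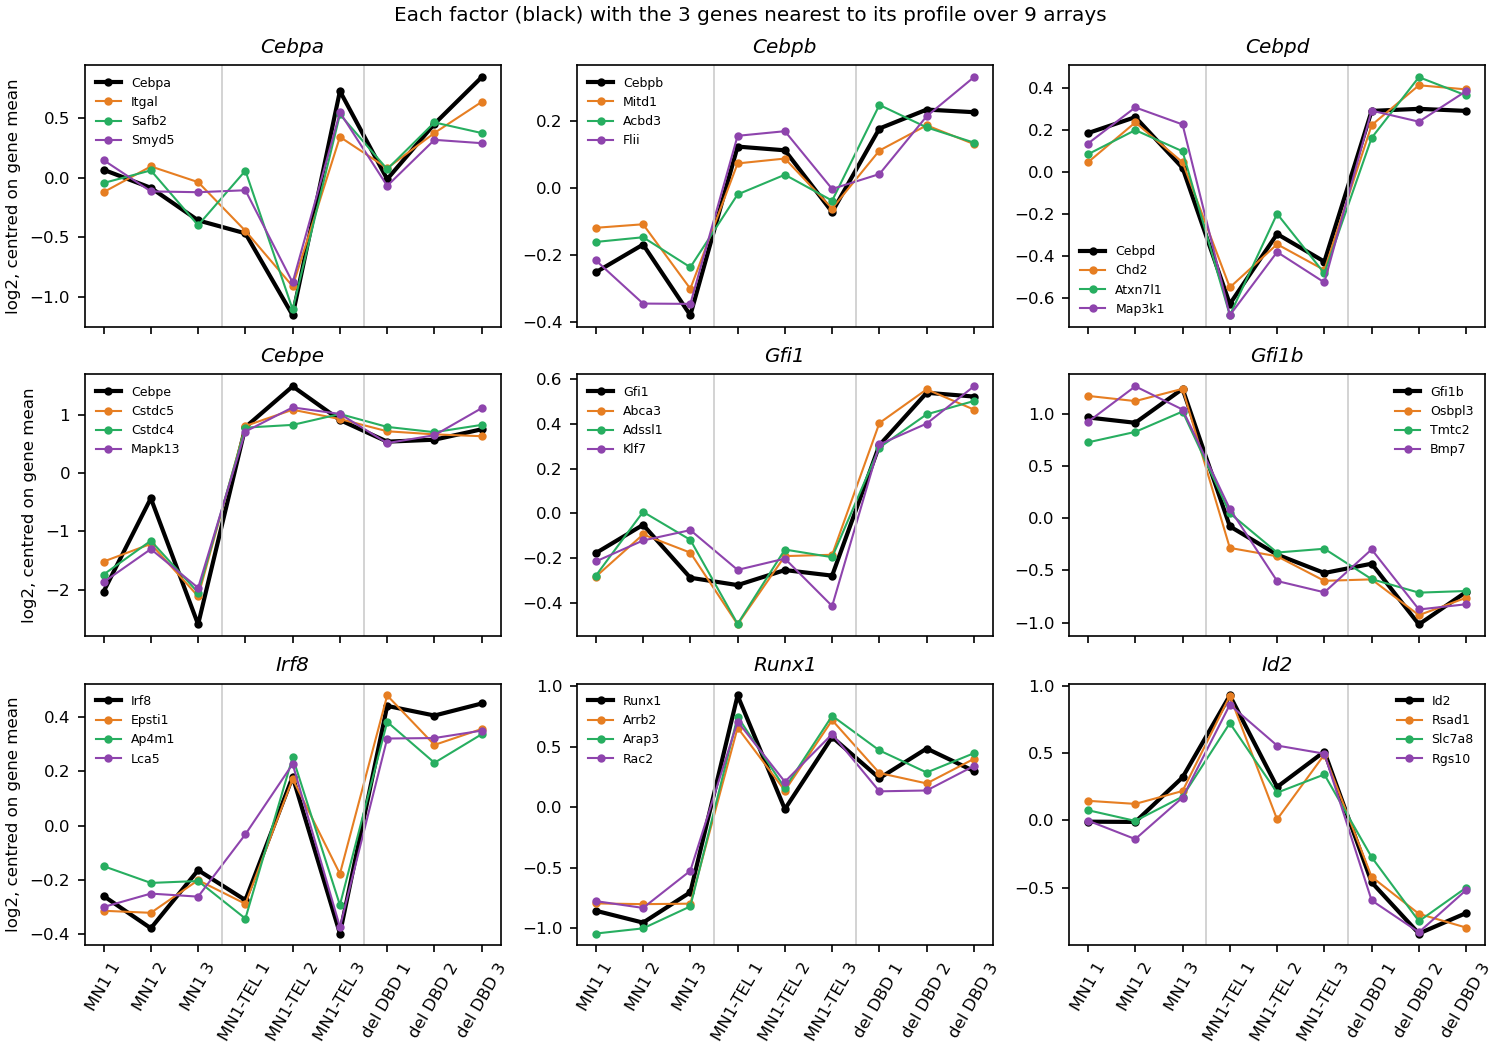
Log2 intensity centred on each gene's own mean (y axis) over the 9 arrays (x axis) for the members with a kept probe and the 3 genes closest to each. The closest genes of Gfi1 lay at root mean square distances of 0.0952 to 0.104.

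Profiles over the 9 arrays were compared across 8893 genes by the root mean square distance between centred log2 values, where 0 is identity. Closest to Cebpe were Cstdc5, Cstdc4 and Mapk13, at 0.384 to 0.404, against a median distance to all genes of 1.37. Runx1 was closest to Arrb2, Arap3 and Rac2, from 0.165 to 0.178. Gfi1b was closest to Osbpl3, Tmtc2 and Bmp7, from 0.136 to 0.195, and Id2 to Rsad1, Slc7a8 and Rgs10, from 0.128 to 0.144. The values were not scaled to the spread of a gene, so factors with small changes lie closer to all genes by construction. The median distance to all genes was 0.380 for Cebpb and 0.433 for Cebpd. Gfi1 was closest to Abca3, Adssl1 and Klf7, from 0.0952 to 0.104, and Irf8 to Epsti1, Ap4m1 and Lca5, from 0.0936 to 0.116. For Cebpd the closest were Chd2, Atxn7l1 and Map3k1, from 0.0807 to 0.0944, and for Cebpb Mitd1, Acbd3 and Flii, from 0.0719 to 0.0897. The Cebpa profile, near background, was closest to Itgal at 0.219. A small distance over 3 groups of 3 arrays is a likeness of pattern only.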

How the data were processed

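Expression was measured on 9 Illumina mouse BeadChip arrays with biotin-labelled total RNA, 3 per construct. GenomeStudio 2010.3 is named in the submitters' processing notes, with no other step. Sample titles gave groups and replicate numbers. The authors deposited a table of raw intensity values per probe and array, each followed by a detection p-value per the file headers. Their own normalized intensity values, also deposited, were used as an alternative. Their table of group means was not used. There were 0 columns of unmapped samples.

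The neqc function of limma 3.58.1 (R 4.3.3) corrected the background by normexp, with an offset of 16, then quantile normalized and took log2. A probe was kept if detected (p-value under 0.01) on 3 or more of the 9 arrays, which left 15870. One linear model over all 9 arrays with the 3 groups was fitted per probe with limma, two-sided, with Benjamini-Hochberg adjustment over all kept probes and a threshold of 0.05. Symbols came from the platform annotation, and a gene stood with its kept probe of highest mean. "At least" folds are given where a group had no detected array. The steps were tested on simulated data.

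The members, lists and rules were chosen with earlier results of these data known. Named genes were all probes of the members, the first 3 measured genes of each list, a set of fate and granule genes, and the 3 genes nearest each member in profile. Tcf4, Vwf and Batf fell outside this rule, as did genes named for their detection or their weight in a sum. Alternatives were other scalings, offsets, filters, probe summaries, array weights, the replicate number as a block, and leaving out each array.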

Additional observations from a re-analysis of the deposited data

How the results depend on the processing

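For the 45 differences of kept member probes, 11 alternative settings and 9 fits that each left out 1 array gave 855 values, of which 808 kept direction and side of the threshold, 27 lost the call, 12 gained one and 8 changed sign. No called difference changed sign. The sign changes were Cebpa in MN1-TEL against MN1 with arrays scaled to the all-probe median (0.17), with array weights (0.033) and, over the fits without 1 array, from -0.68 to 0.25, Cebpd in del DBD against MN1 with median scaling (-0.044), Gfi1 in MN1-TEL against MN1 with the all-probe median (0.32), and, over the fits without 1 array, Irf8 in MN1-TEL against MN1 (-0.069 to 0.22), Cebpe probe ILMN_2528453 between the fusions (-1.10 to 0.10) and Runx1 between the fusions (-0.41 to 0.059). These turned without MN1-TEL replicate 2 (Cebpa, Irf8), 3 (Cebpe) or 1 (Runx1). The cause was not tested. Leaving out 1 array moved the probes called in del DBD against MN1-TEL from 3716 to between 2462, without del DBD replicate 3, and 4958. The genes called there stayed at 3 to 4 of 9, at 4 to 6 in MN1-TEL against MN1 and at 6 to 7 in del DBD against MN1. The all-probe median scaling, chosen after seeing the data as were the list counts without MN1-TEL replicate 2 and under median scaling, raised the share of higher calls from 47.2% to 82.3% in MN1-TEL and from 49.6% to 88.4% in del DBD against MN1, while the planned median scaling gave 40.1% and 38.3%. It moved the median of all genes to 0.40 and 0.34, from -0.06 and -0.04. The replicate numbers showed no sign of pairing the samples. With group means removed, same-numbered arrays of different groups correlated at -0.22 to 0.26 and different-numbered ones at -0.49 to 0.41. Of the 9 arrays, 2 correlated best with their own number. With 3 arrays per group, this check is too small to settle whether samples were paired. With the replicate number as a block, 7342, 4429 and 3271 probes and 5, 7 and 4 member genes were called in the 3 comparisons. Signal near background limits Cebpa and Klf4.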
